A study of Mus musculus with 56 samples.

Results

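The T helper 17 (TH17) libraries of wild-type (WT) mice were compared with the WT TH1, TH2 and Treg libraries cultured beside them. The TH17 members were the samples labelled WT and TH17, 7 of the 56 samples of the series. They stood beside 7 TH1, 7 TH2 and 7 Treg libraries of the same label, 28 WT libraries in all. The libraries lie in 2 tables of gene counts that were analysed separately. The ODC table, made to study loss of Odc, holds 4 WT libraries per subset. The DOHH table, made to study loss of Dohh, holds 3 others per subset, and it served as the replication.

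The study asked how polyamine synthesis and the hypusine it supplies act on T helper cell fate, with Odc or Dohh deleted by a Cre under the CD4 promoter. The WT cells described here came from C57BL/6 mice without Cre. Per the paper, control mice were littermates, and the Odc and Dohh floxed mice were separate lines. Naive CD4+ T cells from spleen and lymph node were activated with anti-CD3 at 5 μg/mL, anti-CD28 at 2 μg/mL and IL-2 at 100 U/mL. This held in every subset, and cells were collected on day 4. TH17 cultures received IL-6 and TGF-β at 5 ng/mL each, IL-1β, and antibodies to IFN-γ and IL-4 at 10 μg/mL each. TH1 cultures received IL-12 at 10 ng/mL with anti-IL-4 at 4 μg/mL. TH2 cultures received IL-4 at 10 ng/mL with anti-IFN-γ at 4 μg/mL. Treg cultures received TGF-β at 10 ng/mL with both antibodies at 4 μg/mL. TH1, TH2 and Treg cultures also had IL-2 at 10 ng/mL beyond the common dose, and TH17 cultures did not. The labels do not say which libraries came from 1 mouse, so p-values measure the spread between these samples.

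TH17 cells recruit neutrophils to barrier tissues such as gut and skin and take part in several autoimmune diseases. IL-6 acting through STAT3, together with TGF-β, induces the TH17 transcription factors that drive Il17a and Il17f. TGF-β without IL-6 induces Foxp3 and the Treg fate instead, so the TH17 and Treg programs share an inducing cytokine. Many nuclear receptors, the Rora product among them, bind DNA at sites with the letters AGGTCA.

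Promoters of the secreted products Il17a, Il17f and Ccl20 and of the receptor gene Il17re are shown because these genes were high in TH17 libraries and at or near 0 in one or more other subsets. Each window runs from 250 bases before the start site to 50 after it, 5′ to 3′ on the gene's strand, from RefSeq on build GRCm38.p6. Il17a lies at chr1:20730655-20730954 on the plus strand, Il17f at chr1:20784221-20784520 on the minus strand, Ccl20 at chr1:83116516-83116815 on the plus strand and Il17re at chr6:113458521-113458820 on the plus strand. Capitals mark matches to AGGTCA, to the AP-1 motif TGANTCA or to the STAT motif TTCNNNGAA, each searched on both strands, so that TGACCT is AGGTCA read from the other strand.
Il17a: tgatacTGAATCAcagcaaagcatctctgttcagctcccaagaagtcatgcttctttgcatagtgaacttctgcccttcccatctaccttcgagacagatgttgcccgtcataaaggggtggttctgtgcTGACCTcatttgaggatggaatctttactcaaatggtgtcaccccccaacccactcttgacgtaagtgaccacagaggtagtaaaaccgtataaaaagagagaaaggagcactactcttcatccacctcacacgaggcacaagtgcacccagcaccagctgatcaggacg
Il17f: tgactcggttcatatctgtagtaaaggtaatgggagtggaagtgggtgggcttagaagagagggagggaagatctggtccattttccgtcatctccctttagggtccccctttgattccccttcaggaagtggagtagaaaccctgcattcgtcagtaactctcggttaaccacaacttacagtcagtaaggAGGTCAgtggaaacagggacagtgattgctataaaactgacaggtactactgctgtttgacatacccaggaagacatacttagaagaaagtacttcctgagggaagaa
Ccl20: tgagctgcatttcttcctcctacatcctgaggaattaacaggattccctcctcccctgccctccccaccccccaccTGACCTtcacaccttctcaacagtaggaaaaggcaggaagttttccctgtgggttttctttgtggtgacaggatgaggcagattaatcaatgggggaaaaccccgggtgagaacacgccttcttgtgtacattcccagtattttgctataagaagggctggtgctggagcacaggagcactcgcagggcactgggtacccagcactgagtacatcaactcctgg
Il17re: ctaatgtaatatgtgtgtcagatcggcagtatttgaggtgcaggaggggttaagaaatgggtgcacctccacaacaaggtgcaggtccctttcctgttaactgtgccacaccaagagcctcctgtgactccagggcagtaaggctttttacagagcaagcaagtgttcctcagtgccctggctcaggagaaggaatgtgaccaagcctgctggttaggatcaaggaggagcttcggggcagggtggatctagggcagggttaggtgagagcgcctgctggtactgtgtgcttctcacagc
The Il17a window held TGACCT at position -120 and the AP-1 match TGAATCA at -244. The Il17f window held AGGTCA at -58, and the Ccl20 window held TGACCT at -174. The Il17re window held none of the 3 motifs.

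Il17a (chr1:20730905-20734496 on GRCm38, plus strand), which encodes IL-17A, was higher in every TH17 library than in any library of another subset. In CPM, which are counts scaled to library size, the 4 TH17 libraries of the ODC table stood at 325, 270, 410 and 338. Their TH1 counterparts stood at 0.88, 0.434, 1.02 and 1.17, TH2 at 4.46, 2.53, 5.11 and 13.1, and Treg at 0.109, 0, 0.354 and 0.566. The log2 fold change (TH17 minus the other subset) was 8.56 ± 0.43 (SE) against TH1, 5.75 ± 0.34 against TH2 and 10.31 ± 0.48 against Treg, with adjusted p of 1.83e-10, 8.26e-10 and 8.6e-11. Without TH2 replicate 4 the change against TH2 was 6.37, and without Treg replicate 4 that against Treg was 11.01.

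The DOHH means stood in the same order. Its TH17 libraries held 38.4, 29.9 and 22.1 CPM of Il17a, against 2.33, 0.929 and 1.85 in TH1, 8.39, 4.3 and 2.86 in TH2 and 0.615, 0.628 and 0.0867 in Treg. The lowest TH17 library again lay above the highest TH2 library. The log2 fold change was 4.12 ± 0.35, 2.50 ± 0.30 and 6.09 ± 0.44 against TH1, TH2 and Treg. The change against TH1 was 4.41 larger (log2) in the ODC table (adjusted p = 0.000166) and that against TH2 3.24 larger (adjusted p = 8.69e-05). The difference against Treg, 4.22, did not pass the test (adjusted p = 0.0524).

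Il17f encodes the second TH17 signature cytokine and lies near Il17a, at chr1:20777146-20790617 on the minus strand. Its 4 TH17 libraries in the ODC table stood at 1385, 1448, 1430 and 1493 CPM. There TH1 libraries held 0 to 1.02 CPM, TH2 libraries 10.9 to 40 and Treg libraries 1.14 to 6.34. In the DOHH table TH17 held 221, 266 and 196 CPM, and no other library exceeded 7.05. The groups did not overlap in either table. Log2 fold changes against TH1, TH2 and Treg were 11.14, 6.17 and 9.08 in the first table and 8.62, 5.33 and 6.30 in the second, and of these the change against Treg differed between tables (2.77, adjusted p = 0.0116). Without Treg replicate 4 the first-table change against Treg was 9.95.

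**Figure D1:**
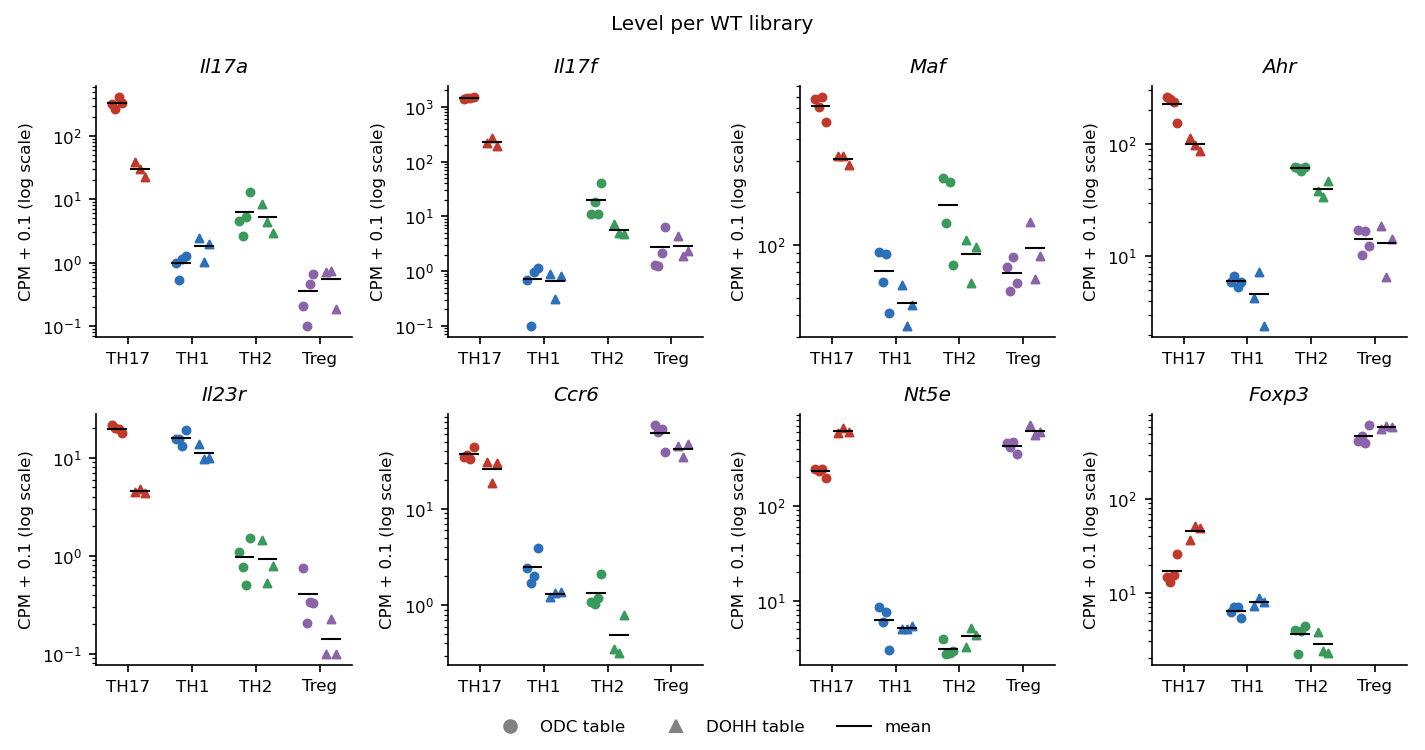
Level of selected TH17 genes and of genes of other subsets in each WT library (CPM plus 0.1, log axis), with 4 libraries per subset in the ODC table, and 3 in its DOHH counterpart. Points are libraries and bars are means. Il17a and Il17f are separated from every other subset in both tables, with TH17 means of 336 and 30.1 CPM for Il17a.

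The libraries grouped by subset. On the 500 genes of highest variance, the first 2 principal components carried 52.3% and 23.3% of the variance in the ODC table, and 67.1% and 15.5% in its DOHH counterpart. The first component set TH17 and Treg on one side and TH1 and TH2 on the other in both tables. Where TH17 lay differed: distances from the TH17 centre to the TH1, TH2 and Treg centres (units of the variance-stabilised log2 scale) were 35.0, 38.8 and 36.2 in the ODC table, and 39.6, 44.4 and 29.4 in its DOHH counterpart. The distance to Treg was therefore 1.04 times that to TH1 in the first table and 0.742 times in the second. On all genes past the filter the ratios were 0.992 and 0.771, so that the nearer of TH1 and Treg in the ODC table depended on the genes used. These distances are a description, without a test.

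**Figure D2:**
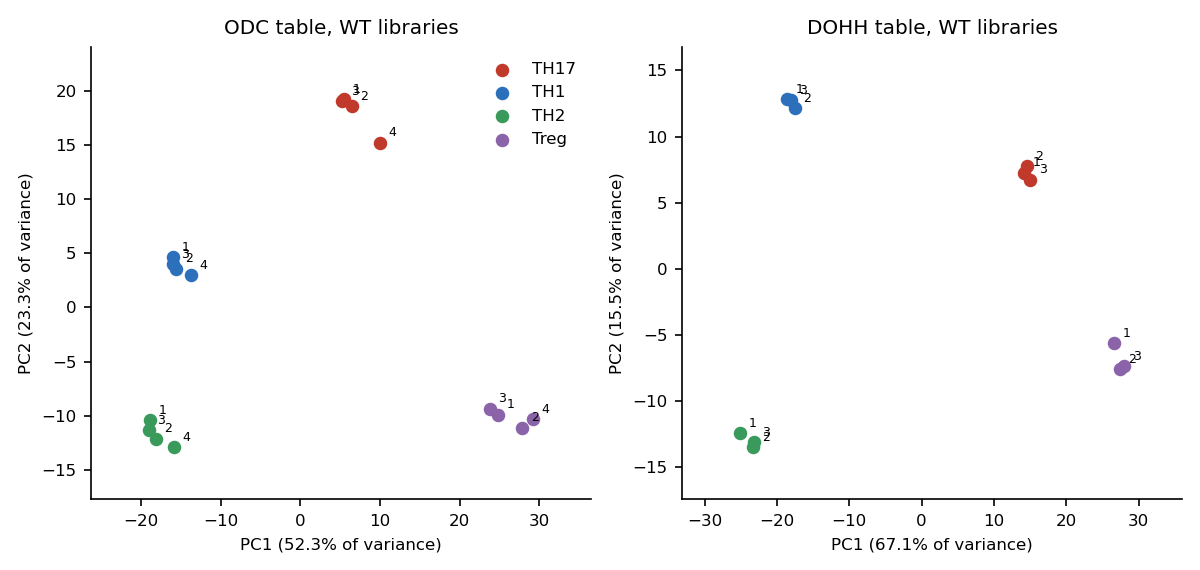
First 2 principal components of the WT libraries of each table, from variance-stabilised counts of 500 genes. Points are libraries, coloured by subset. TH17 libraries form 1 group in each table, on the Treg side of the first component, and replicate 4 of the ODC table lies apart from the other 3.

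Total counts were 8357339 to 8693038 in the TH17 libraries of the ODC table and 8328721 to 11768921 in their DOHH counterparts. For a gene with no count, the 95% upper limit of 3 counts corresponds to 0.312 to 0.440 CPM over the ODC libraries and 0.231 to 0.377 CPM over the DOHH libraries. These limits cover counting error only. The 12 T cell markers summed to 4448 to 5534 CPM in TH17 libraries of the first table and 5808 to 6035 in the second. In bulk samples, fewer cells of a type and less RNA per cell cannot be told apart. The tables were not counted alike: 268 genes reached 300 WT counts in the former and no more than 5 in the latter, and 13 the reverse. Comparisons were therefore made within a table, and levels are set across tables only side by side.

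TH17 libraries differed widely from each other subset. A gene was called at a change above 2-fold and an adjusted p below 0.05. Of 12878 genes tested in the ODC table, 1914 (14.9%) were called against TH1, 760 of them higher in TH17 (5.90%) and 1154 lower (8.96%). Against TH2, 2205 were called (17.1%), 936 higher (7.27%) and 1269 lower (9.85%). Against Treg, 1784 were called (13.9%), 900 higher (6.99%) and 884 lower (6.86%). The 3 comparisons share the TH17 libraries and are not independent of each other.

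Of 12825 genes tested in the DOHH table, 2057 were called against TH1, 1001 higher (7.81%) and 1056 lower (8.23%). TH2 gave 2282 calls (17.8%), 1188 higher (9.26%) and 1094 lower (8.53%). Treg gave the fewest, 1334 (10.4%), with 731 higher (5.70%) and 603 lower (4.70%). Among genes tested in both tables, those called higher in TH17 in the ODC table were called higher again in the DOHH table in 465 of 698 cases against TH1 (66.6%), 597 of 852 against TH2 (70.1%) and 481 of 828 against Treg (58.1%). For genes lower in TH17 the counts were 593 of 1062 (55.8%), 705 of 1157 (60.9%) and 439 of 824 (53.3%). Calls in opposite directions numbered 6 and 18 against TH1 (higher and lower in the ODC table), 2 and 8 against TH2, and 0 and 1 against Treg.

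Genes called higher in TH17 than in each of the other 3 subsets numbered 189 in the ODC table (1.47%) and 177 in its DOHH counterpart (1.38%). The 2 sets shared 99 genes (0.812% of the 12185 tested in both), which is 59.6% of the first set and 67.3% of the second where both were tested. Genes called lower than in each of the others numbered 193 (1.50%) and 102 (0.795%), and 55 were in both sets (0.451%), 30.4% of the first and 57.9% of the second.

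Of the 99 genes, those with a mean of at least 5 CPM in TH17 in each table were ranked by their smallest change over the 6 comparisons, and the first 10 were Il17f, Serpinb1a, Daw1, Prr29, Tmem176a, Il17re, Ppp1r14c, Nynrin, Il17a and Tmem176b. Serpinb1a, an inhibitor of neutrophil serine proteases, stood at 220, 221, 210 and 87.6 CPM in the TH17 libraries of the ODC table and at 206, 292 and 252 in the DOHH table. Other subsets ranged from 0.714 to 13.6 CPM in the first table and from 2.04 to 17.8 in the second. The lowest TH17 library was thus more than any other library, with log2 fold changes of 4.17, 7.21 and 5.04 against TH1, TH2 and Treg, and of 3.98, 6.49 and 4.53 in the second table.

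Tmem176a and Tmem176b encode a pair of related membrane proteins and rose together. Tmem176b was 45.3 to 49.2 CPM in TH17 libraries of the ODC table and 55.5 to 72.3 in the DOHH table, against at most 16.8 and 9.17 in any other library. Tmem176a was 34.5 to 43.4 and 52.4 to 64.9 CPM. Il17re, the receptor subunit for IL-17C, was 8.08 to 14.1 and 6.21 to 10 CPM in TH17 libraries and at most 1.32 and 1.81 elsewhere.

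Daw1, a factor of axonemal dynein assembly, was counted in no TH1 or TH2 library. Its TH17 libraries held 6.09, 4.85, 5.27 and 7.73 CPM, then 6.22, 8.26 and 7.04 in the DOHH table. This was at least 13.7-fold higher than in TH1 and 14.9-fold higher than in TH2 in the first table, and at least 23.5-fold and 23.4-fold in the second, measured against 3 counts per library. Prr29 was 18.2 to 31 and 19.3 to 25.7 CPM in TH17 and at most 3.08 and 4.07 elsewhere. Read assignment limits some of these values. Nynrin and Ppp1r14c overlap another annotated gene on the opposite strand over 56.5% and 29.2% of their exon length, and the strand setting of the counts is not given in the sources used here. The same limit holds for opposite-strand overlaps of Il21 (8.92%), Maf (5.34%), Hif1a (5.60%), Coro2a (5.09%), Ldlrad4 (52.1%), Hmgcs1 (12.1%), Dhps (5.51%) and Trdc (7.84%), and Dohh shares 47.5% of its exon length with another gene on its own strand.

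Among the listed TH17 transcription factors, Ahr and Maf were called higher in TH17 than in each other subset in both tables. Ahr encodes the aryl hydrocarbon receptor, a ligand-activated factor that TH17 cells use to sense small molecules. TH17 libraries held 259, 249, 236 and 152 CPM, and 112, 97.8 and 86.8 in the DOHH table. TH2 libraries came next at 56.8 to 61.8 and 33.8 to 46.9, followed by Treg at 10.2 to 17.2 and 6.41 to 18.5. TH1 libraries held the least, 5.27 to 6.65 and 2.32 to 7.12 CPM, and only the Treg and TH1 ranges of the DOHH table overlapped in this order. The Ahr means stood higher by 37.9-, 3.71- and 15.9-fold and by 21.8-, 2.5- and 7.58-fold over TH1, TH2 and Treg. Ahrr, a target of the receptor that represses it, was also called in all 6 comparisons, at 4.18 ± 0.249 CPM (SD, n = 4) and 7.39 ± 0.125 (SD, n = 3) in TH17.

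Maf, which encodes c-MAF and drives Il10 and Il21, was 678, 608, 693 and 505 CPM in TH17 and 321, 322 and 285 in the DOHH table. Every other library held less, at most 240 and 136. Log2 fold changes were 3.14, 1.87 and 3.17 against TH1, TH2 and Treg, then 2.74, 1.81 and 1.69. Rora, which encodes the nuclear receptor RORα, was 110 to 234 CPM and 62.5 to 65.8, and was called against TH1 (1.62 and 1.65, log2) and TH2 (2.98 and 3.23) in both tables. Against Treg it was called in the first table only (1.53), with 0.77 in the second (adjusted p = 0.000426, below 2-fold), and the tables did not differ by the test of the difference (adjusted p = 0.192).

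Other factors needed for TH17 differentiation did not separate TH17 from every subset. Batf was 92.6 to 99.2 CPM in TH17 and 319 to 385 in TH2 of the ODC table, a fall of 1.86 on the log2 scale against TH2 beside a rise of 1.66 against Treg. The same 2 calls stood in the DOHH table at -2.09 and 1.48. Irf4 gave no call in any comparison, with 1146 ± 66.1 CPM (SD, n = 4) in TH17 and 1206 ± 120 in TH1. Stat3 gave none either, with 829 ± 90.4 CPM in TH17 and 818 ± 157 in Treg of the ODC table.

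Hif1a, the oxygen-sensing factor that promotes glycolysis, was called only against Treg, by 1.96 and 1.45 (log2). TH17 libraries held 1506 to 2065 CPM in the ODC table, above TH1 at 1002 to 1308, and 454 to 558 in the DOHH table, below TH1 at 887 to 1080. The change against TH1 was 0.71 and -0.90 and differed between tables by 1.59 (adjusted p = 5.48e-05), although neither value passed 2-fold. Ikzf3 was called against TH1 in both tables (1.67 and 1.95). Of the 15 listed TH17 transcription factors, 5 were called higher against TH1, 4 against TH2 and 8 against Treg, the same counts in both tables. Lower calls were 1, 1 and 0 in the ODC table, and 0, 1 and 0 in its DOHH counterpart. The list's median log2 fold change was 0.44, 0.34 and 1.53, then 0.57, 0.57 and 1.16, where the median over all genes tested lay between -0.006 and 0.009 in every comparison. Shares of all genes tested called higher against TH1, TH2 and Treg were 5.90%, 7.27% and 6.99% in the ODC table. They were 7.81%, 9.26% and 5.70% in its DOHH counterpart. Shares called lower were 8.96%, 9.85% and 6.86%, then 8.23%, 8.53% and 4.70%. These shares stand beside the counts of every list and marker set below.

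Receptors for the cytokines that induce and maintain TH17 cells differed by member and by subset. Il1r1, the signalling receptor for the IL-1β present in these cultures, was 40.7, 27.6, 39.4 and 28.4 CPM in TH17 libraries of the ODC table, and at most 6.75 in the others. The DOHH table gave 5.07, 6.86 and 7.16 CPM against at most 4.03. It was called in all 6 comparisons, with 2.63, 3.03 and 5.97 (log2) in the first table and 1.06, 1.08 and 3.51 in the second. The DOHH call against TH1 was lost without TH1 replicate 2 (0.88), and that against TH2 without TH2 replicate 2 (0.83) or without TH17 replicate 3 (0.996, below 2-fold). The DOHH change against Treg was 4.86 without Treg replicate 1. All 3 changes were larger in the ODC table, by 1.55, 1.95 and 2.47 (adjusted p = 0.00911, 0.00301 and 0.0394).

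Il23r encodes the IL-23 receptor, which stabilises the TH17 fate. TH17 libraries held 21.5, 20.3, 19.6 and 17.7 CPM in the ODC table, overlapping TH1 at 15.4, 15.3, 13 and 19.3, and stood above TH2 and Treg, which reached at most 1.43. In the DOHH table TH17 held 4.42, 4.68 and 4.3 CPM, below TH1 at 13.8, 9.7 and 9.85. The change against TH1 was 0.33 (adjusted p = 0.191) in the first table and -1.32 (adjusted p = 0.000203) in the second, a difference of 1.62 (adjusted p = 0.000801). Against TH2 and Treg it was called higher in both tables, by 4.49 and 5.95, then 2.36 and 6.70. Without Treg replicate 1 the first-table change against Treg was 6.61, and without TH2 replicate 1 the second-table change against TH2 was 2.98. The sole Treg count of the DOHH table lay in replicate 2, so 6.70 depends on the fit.

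Ccr6, the receptor for CCL20 that guides TH17 cells to mucosa, was 33.3 to 44.4 CPM in TH17, at most 3.8 in TH1 and TH2, and 39.2 to 74.1 in Treg. The DOHH table gave 18.3 to 30.4, at most 1.27, and 34.7 to 47.5 CPM. Treg libraries overlapped TH17 in the first table and lay above it in the second, with changes of -0.71 and -0.70 that did not pass 2-fold. Tgfbr1 was lower in TH17 than in Treg in both tables, by 3.09- and 2.48-fold, and Tgfbr2 was not called against Treg. Of the 11 receptors, 4, 4 and 5 were called higher against TH1, TH2 and Treg and 0, 0 and 1 lower in the ODC table, against 5, 6 and 4 higher and 1, 1 and 1 lower in the DOHH table. Their median log2 fold changes were 0.94, 0.75 and 0.97, then 0.90, 1.08 and 0.80.

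Secreted products beyond IL-17 split by subset. Ccl20, the chemokine that attracts CCR6+ cells, was 12.1, 19, 12.3 and 45.8 CPM in TH17 and 8.59, 9.85 and 7.04 in the DOHH table. It was 0 in every TH1 and TH2 library, so that TH17 was at least 50.9- and 55.7-fold higher in the first table and at least 27.8-fold higher than either in the second. Without TH17 replicate 4 the first limits were 33.1- and 36.1-fold. Treg libraries held 4.13 to 8.49 and 4.27 to 4.68 CPM, with a call in the ODC table (1.86, or 1.24 without TH17 replicate 4) and 0.94 in its DOHH counterpart. Il21, which supports B cell help and TH17 growth, was near 0 in Treg, at most 2.01 CPM in any library. TH17 libraries of the ODC table held 355 to 411 CPM of it, above TH1 at 218 to 286 and overlapping TH2 at 156 to 356, and neither change passed 2-fold.

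In the DOHH table Il21 was 51.7 to 58.4 CPM in TH17, below TH2 at 114 to 154 (log2 change -1.31, adjusted p = 3.13e-07). Il10, an anti-inflammatory cytokine, was lower in TH17 than in TH1 and TH2 and higher than in Treg in both tables. Its TH17 libraries held 43.7, 34.7, 44 and 42.6 CPM against 152 to 195 in TH2, and 7.12, 11.4 and 8.48 against 42.5 to 44.5. Il24, a cytokine of the IL-10 family, was also lower than in TH1 and TH2. It stood at 32.5 to 44 CPM in TH17 and 750 to 799 in TH2 of the ODC table, and at 2.75 to 5.57 and 725 to 860 in the DOHH table, a log2 change of -4.30 and -7.43.

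Il22, often made by TH17 cells exposed to IL-23, was 0.692 to 2.65 CPM in TH17 of the ODC table and 0, 0 and 0.477 in the DOHH table, where the count floor was 0.231 to 0.377 CPM. It was called lower than in TH2 in both tables (-2.33 and -4.01, log2), with overlapping libraries in the ODC table, and lower than in TH1 in the DOHH table (-3.61). The ODC call was lost without TH2 replicate 4 (-0.94, adjusted p = 0.0933). Without TH17 replicate 1 the DOHH changes against TH1 and TH2 were -2.92 and -3.32, and without replicate 3 no DOHH TH17 library held a count. Against Treg, where 3 of 4 libraries held no count, Il22 was called higher in the ODC table (4.68, adjusted p = 0.0115), with no call without the filter on low counts (adjusted p = 0.0536). This change was 6.85 without Treg replicate 2, so its size depends on the fit. Il9 stood at 1.49, 0.808, 1.23 and 21.7 CPM in the ODC table, where 1 library held most of the signal. Il1rn, the decoy ligand for IL1R1, was higher than in TH1 (3.94, or 4.58 without TH1 replicate 4, and 4.17, log2) and TH2 (1.41 and 2.13). The call against TH2 was lost in the ODC table when tested against a 2-fold change (adjusted p = 0.373), and in its DOHH counterpart with WT and KO groups in 1 fit (adjusted p = 0.133). Over the 12 listed cytokines and chemokines, 7, 4 and 8 were called higher and 3, 4 and 0 lower against TH1, TH2 and Treg in the ODC table, and 6, 6 and 7 higher and 4, 5 and 1 lower in the DOHH table. Median log2 fold changes were 2.64, 0.58 and 3.10, then 2.26, 0.11 and 1.64.

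**Figure D3:**
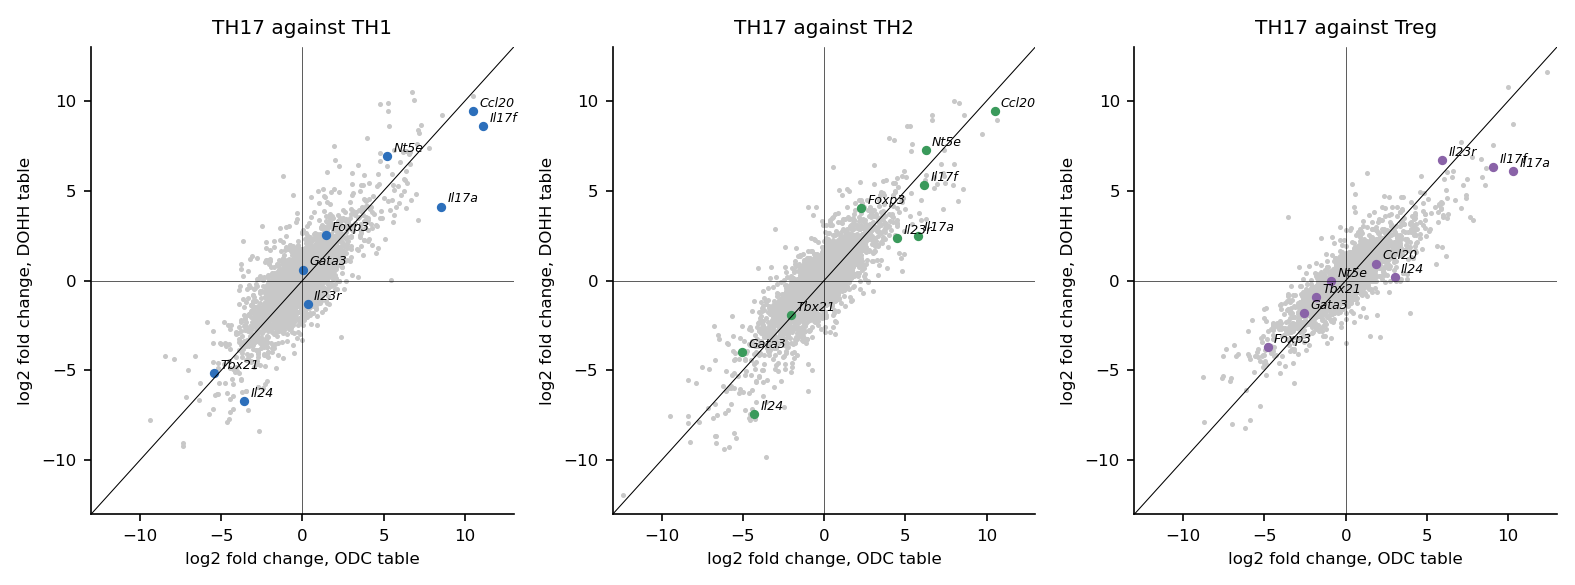
Log2 fold change of TH17 over each other WT subset in the ODC table (horizontal axis) against that in the DOHH table (vertical axis), 1 point per gene tested in both, with selected genes named. Il17a and Il17f lie far to the upper right in all 3 panels, and Il24 lies at the lower left against TH1 and TH2, at -3.59 and -6.72 for TH1. The fitted position of a gene at 0 in a subset, such as Ccl20 against TH1 and TH2, depends on the fit and is no bound.

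Genes called lower in TH17 than in each other subset in both tables were ranked in the same way, over genes with a mean of at least 5 CPM in each of TH1, TH2 and Treg, and the first 10 were Penk, Mirt1, Slc26a10, Usp18, Fam71b, Ifitm3, Coro2a, Crabp2, Itih5 and Stra6. Penk encodes proenkephalin, the precursor of opioid peptides. TH17 libraries held 1.38, 1.27, 2.36 and 3.58 CPM and 1.96, 1.09 and 1.07 in the DOHH table, and every other library held at least 12.4 and 8.15. TH2 was 52.1-fold and 40.4-fold above TH17. Penk, Mirt1 and Slc26a10 overlap genes of the opposite strand over 14.3%, 11.8% and 17.8% of their exon length.

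Usp18 and Ifitm3 are both induced by interferon. Usp18 was 0.92, 0.577, 1.01 and 1.5 CPM in TH17 and 1.06, 1.59 and 0.955 in the DOHH table. TH1 libraries stood highest at 39.4 to 51.5 and 23.8 to 30.6, and no other library was below 5.61 CPM. Ifitm3 was 2.42 to 7.5 and 1.19 to 2.05 CPM in TH17, against 75.2 to 115 and 67.4 to 88.7 in TH1. Isg15, also interferon-induced, was lower in all 6 comparisons, with 1.81 ± 0.651 CPM (SD, n = 4) and 0.521 ± 0.239 (SD, n = 3) in TH17.

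Gbp2, an interferon-inducible GTPase, went the other way. It was 925, 915, 873 and 747 CPM in TH17 and 749, 913 and 704 in the DOHH table, above every other library, the highest of which held 451 and 226. Of the listed interferon-response genes tested (22 in the ODC table, 17 in its DOHH counterpart), 1, 6 and 1 were called higher and 5, 4 and 9 lower against TH1, TH2 and Treg in the first, and 1, 6 and 3 higher and 7, 5 and 5 lower in the second. Among all genes tested, 5.90%, 7.27% and 6.99% were called higher and 8.96%, 9.85% and 6.86% lower in the ODC table. The DOHH shares were 7.81%, 9.26% and 5.70% higher and 8.23%, 8.53% and 4.70% lower. The interferon list held calls in both directions in every comparison. Its median log2 fold change was -0.57, -0.04 and -0.77, then -0.54, 0.04 and -0.55.

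Crabp2 and Stra6 bind and take up retinoids. Stra6, the cell-surface receptor for retinol-binding protein, was 2.88 to 3.79 and 3.46 to 5.24 CPM in TH17. Treg libraries held 39.8 to 55 and 74.7 to 82.1, TH2 libraries 55.8 to 69.7 and 37.9 to 58, and TH1 libraries 6.88 to 32.9 and 12 to 14. Crabp2 was 2.58 to 9.11 and 1.69 to 3.46 CPM in TH17 and at least 13.6 and 11.4 in every other library. Fasl, the death ligand of activated T cells, was 0.826 ± 0.375 and 0.834 ± 0.376 CPM in TH17 (SD, n = 4 and n = 3) and 24.3 ± 3.11 and 22.1 ± 2.28 in TH1.

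The defining genes of TH1 and TH2 cells were low in TH17 libraries. Tbx21, which encodes the TH1 factor T-bet, was 2.87, 2.65, 4.94 and 3.35 CPM in TH17 against 125, 148, 120 and 202 in TH1, and 3.27, 2.39 and 1.79 against 77.6, 115 and 83.5 in the DOHH table. This was 43.1-fold and 37-fold lower. Ifng, its cytokine target, was 5.08 to 23.8 CPM against 523 to 1890, and 2.13 to 2.69 against 203 to 280. An overlap of 26% of its exon length with another annotated gene on the same strand leaves the Ifng counts uncertain. Of 17 TH1 genes, 11 and 12 were called lower against TH1 and none higher, with a median log2 fold change of -2.36 and -3.54.

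Gata3, the TH2 factor, was 5.88 to 8.97 CPM in TH17 and 231 to 272 in TH2 of the ODC table, and 12.8 to 19 and 223 to 252 in the DOHH table. It was 33.6-fold and 15.5-fold lower, and the change was 1.11 larger in the ODC table (adjusted p = 0.00995). Il4 was 0.462 to 3.35 and 0.477 to 1.49 CPM in TH17, and Il13 was 3.92 to 12.8 and 1.31 to 1.59. TH2 libraries held 35.4 to 72 CPM of Il4 over both tables and at least 187 CPM of Il13. Of the listed TH2 genes (14 and 15 tested), 11 were called lower against TH2 in each table and none higher.

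Gzmb, the cytotoxic protease granzyme B, was lower than in TH1 in both tables but to different extents. TH17 libraries held 134, 61.7, 140 and 305 CPM in the ODC table, and 18.7, 19.5 and 11.2 in its DOHH counterpart, against 1424 to 2335 and 1070 to 1268 in TH1. The log2 change was -3.45 and -6.13 and differed by 2.66 (adjusted p = 0.0014).

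Genes of the Treg program went both ways against TH1 and TH2. Of the 19 listed, 5 were called higher and 5 lower than in TH1 in the ODC table, and 6 and 5 in its DOHH counterpart. Against TH2, 4 were higher and 8 lower, then 6 and 7. Medians were -0.34 and 0.15 against TH1 and -0.21 and -0.39 against TH2. Of all genes tested, 5.90% and 7.81% were called higher than in TH1 and 8.96% and 8.23% lower. Against TH2 these shares were 7.27% and 9.26% higher and 9.85% and 8.53% lower. Foxp3, the Treg factor, was 14.7, 12.9, 15.3 and 25.7 CPM in TH17 of the ODC table, 5.26 to 6.94 in TH1, 2.13 to 4.28 in TH2 and 422, 474, 403 and 620 in Treg. The DOHH table gave 36.5, 51 and 49.4 CPM in TH17, 7.17 to 8.67 in TH1, 2.18 to 3.69 in TH2 and 566, 604 and 599 in Treg. TH17 thus lay between, 2.72- and 5.8-fold above TH1 and 28- and 12.9-fold below Treg. The change against Treg differed by 1.12 between tables (adjusted p = 0.00928), with TH17 nearer to Treg in the DOHH table. Foxp3 shares 18.6% of its exon length with other genes on its own strand and 18.7% with genes on the other.

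Nt5e, the gene of CD73 that makes adenosine, was high in TH17 and Treg libraries. It was 244, 233, 246 and 198 CPM in TH17, 2.66 to 8.51 in TH1 and TH2, and 350 to 471 in Treg. In DOHH libraries TH17 held 582, 665 and 605 CPM and Treg 708, 560 and 596, which overlap, and TH1 and TH2 held at most 5.33. Itgae, the integrin CD103 induced by TGF-β, gave 21.3 ± 5.04 CPM in TH17 and 15.2 ± 4.14 in Treg (SD, n = 4), with 1.68 ± 0.824 in TH1. Its changes against TH1 were 3.65 and 3.89 (log2), and it was not called against Treg in either table. TH17 and Treg cultures alone received TGF-β, and they alone received antibodies to both IFN-γ and IL-4. These cannot be told apart, here or for the list below.

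The TGF-β response list, which includes Skil, Ldlrad4 and Tgfbi, had 15 and 16 members tested. Against TH1, 8 were called higher in each table and 1 and 0 lower, and against TH2 8 and 7 higher and none lower. Against Treg, which had also received TGF-β, 2 were called higher in each table and 0 and 1 lower. Median log2 fold changes were 1.08, 1.02 and -0.11 in the ODC table and 0.99, 0.98 and -0.25 in its DOHH counterpart. Tgfbi, a secreted matrix protein, was 6.12 to 12 and 2.51 to 6.27 CPM in TH17 and at most 0.673 in TH1 and TH2. Gja5, which encodes the gap junction protein connexin 40, was 146, 123, 133 and 115 CPM and 60.7, 67.7 and 38.7 in TH17, at most 0.292 in TH1 and TH2, and 4.06 to 9.92 and 17.1 to 33.1 in Treg.

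Ikzf2 (Helios) and Nrp1, markers of regulatory cells, were 2.71- and 5.16-fold lower than in Treg in the ODC table and 3.19- and 3.75-fold lower in the DOHH table. Of 19 Treg genes, 8 and 6 were called lower against Treg and 1 in each table higher, with medians of -0.88 and -0.43. The shares of all genes tested were 6.86% and 4.70% lower and 6.99% and 5.70% higher. Among genes separating TH17 from Treg in the other direction, Ly6g, a cell-surface gene best known from neutrophils, was 0 in every Treg library. It was 101, 92.7, 94.1 and 38.6 CPM in TH17 and 108 to 145 in TH1 of the ODC table, at least 245-fold above Treg, and 23.5 to 54.8 CPM in the DOHH table, at least 132-fold above Treg.

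**Figure D4:**
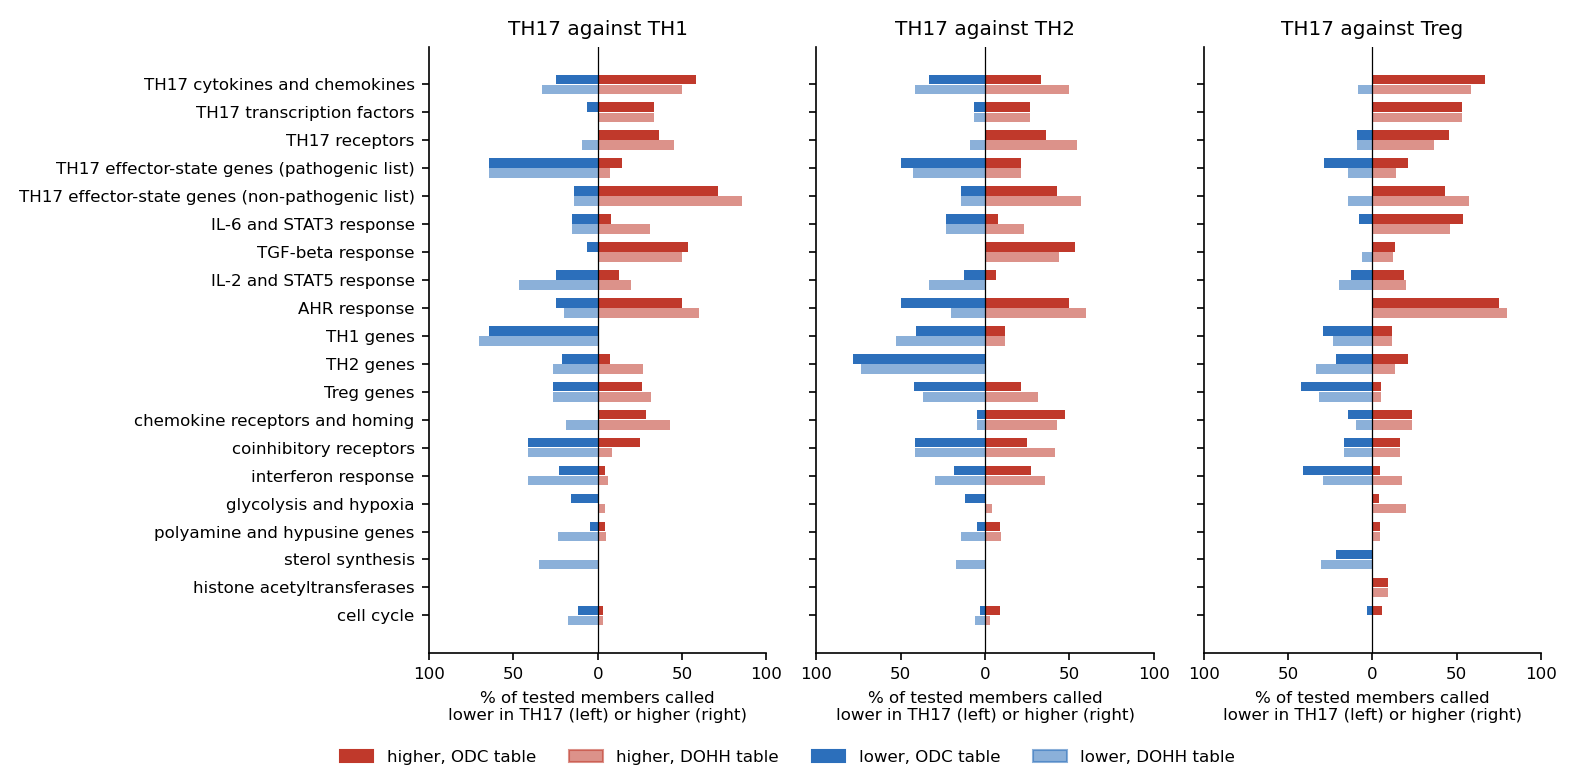
Percentage of the tested members of each gene list that were called higher (right of 0) and lower (left of 0) in TH17 than in TH1, TH2 and Treg, in the ODC table (dark bars) and the DOHH table (light bars). The TGF-β list holds 8 higher calls against TH1 in each table and 2 against Treg, and the sterol list holds lower calls only.

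Genes that respond to IL-6 were read in the same way. Socs3, a STAT3 target that limits IL-6 signalling, was 249 ± 35.3 CPM (SD, n = 4) in TH17 and 80.4 ± 26.1 in Treg, and 599 ± 38.2 (SD, n = 3) and 143 ± 17.9 in the DOHH table. Against TH1 it was not called in the ODC table (-0.42) and was higher in the DOHH table (1.08), a difference of 1.52 (adjusted p = 0.000263). Bcl6, another STAT3 target, was 25.7 to 62.7 and 37.6 to 43.9 CPM in TH17 and at most 7.31 in TH1 and TH2. Of the 13 genes on the IL-6 and STAT3 list, 7 and 6 were called higher against Treg, 1 and 4 against TH1 and 1 and 3 against TH2. Lower calls were 1 and 0, 2 and 2, and 3 and 3. The list's median log2 fold changes against TH1, TH2 and Treg were -0.28, -0.21 and 1.06, then 0.49, 0.14 and 0.82. Among all genes tested, 5.90%, 7.27% and 6.99% were called higher in the ODC table, and 7.81%, 9.26% and 5.70% in its DOHH counterpart.

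Lists of genes tied to TH17 effector states were taken from general knowledge of the field. Of the 7 genes tied to the non-pathogenic state, 5, 3 and 3 were called higher against TH1, TH2 and Treg in the ODC table, and 6, 4 and 4 in its DOHH counterpart. Lower calls were 1, 1 and 0, then 1, 1 and 1. Median log2 fold changes of this list were 3.14, 0.95 and 0.94, then 2.74, 1.08 and 1.24. Of 14 tested genes tied to the pathogenic state, 2, 3 and 3 and 1, 3 and 2 were called higher, and 9, 7 and 4 and 9, 6 and 2 lower. Its medians were -1.24, -1.25 and 0.26, then -1.72, -0.42 and -0.51. The pathogenic list holds Tbx21, Gzmb and other genes that TH1 cells use. Among all genes tested, 5.90%, 7.27% and 6.99% were called higher and 8.96%, 9.85% and 6.86% lower in the ODC table. The DOHH shares were 7.81%, 9.26% and 5.70% higher and 8.23%, 8.53% and 4.70% lower.

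The list of coinhibitory receptors, which restrain activated T cells, went both ways, and it also holds the factors Tox and Tox2. Of the 12 genes listed, 3 and 1 were called higher and 5 and 5 lower than in TH1, and 3 and 5 higher and 5 and 5 lower than in TH2. Against Treg, 2 were called higher and 2 lower in each table. Over all genes tested, 5.90% and 7.81% were called higher than in TH1 and 8.96% and 8.23% lower, 7.27% and 9.26% higher than in TH2 and 9.85% and 8.53% lower, and 6.99% and 5.70% higher than in Treg and 6.86% and 4.70% lower. Tigit was 18 to 32.5 and 17.5 to 22.4 CPM in TH17 against 166 to 179 and 89.2 to 141 in TH2. Lag3 was 4.21- and 2.97-fold lower than in TH1, and Btla 4.21- and 3.91-fold lower than in TH2. Cxcr6, a homing receptor of tissue-resident T cells, was higher than in each other subset in both tables, at 35 to 63.3 and 19.5 to 27.6 CPM against at most 18 and 12 elsewhere. Tox2 was also higher than in each, at 11.2 to 24.9 and 13.1 to 16.5 CPM against at most 2.71 and 4.13. It is 1 of the 12 listed genes, and the only 1 called higher than in TH1 in the DOHH table.

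Of 25 genes of glycolysis and hypoxia, the change differed between the tables in 15 against TH1, 8 against TH2 and 6 against Treg. Over all genes tested in both tables it differed in 27.2%, 17.2% and 3.95%. Slc2a1, the glucose transporter GLUT1, was 159, 185, 169 and 208 CPM in TH17 of the ODC table, below TH1 at 512, 526, 481 and 454. The DOHH table gave 448, 444 and 635 CPM, above TH1 at 402, 372 and 323. The log2 change against TH1 was -1.45 and 0.48, a difference of 1.95 (adjusted p = 3.42e-08), and the change of 0.48 did not pass 2-fold. Hk2, which traps glucose, differed in the same sense by 1.08 (adjusted p = 4.01e-05), and Slc16a3, a lactate exporter, by 1.49 (adjusted p = 1.3e-06). Over the 25 genes, 0, 0 and 1 were called higher and 4, 3 and 0 lower against TH1, TH2 and Treg in the ODC table, and 1, 1 and 5 higher and none lower in the DOHH table. The shares of all genes tested were 5.90%, 7.27% and 6.99% higher and 8.96%, 9.85% and 6.86% lower in the ODC table. In the DOHH table they were 7.81%, 9.26% and 5.70% higher and 8.23%, 8.53% and 4.70% lower.

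Of 23 sterol synthesis genes, 5 were called lower than in Treg in the ODC table and 7 in its DOHH counterpart. Hmgcs1, an early enzyme of the mevalonate pathway, was 184, 206, 180 and 233 CPM in TH17 and 462, 560, 404 and 547 in Treg, and 94, 93.9 and 86.2 against 220, 202 and 259 in the DOHH table. The change was -1.29 and -1.31. Against TH1 it was -0.08 in the ODC table and -1.49 in its DOHH counterpart, a difference of 1.39 (adjusted p = 2.61e-06). None of the 23 was called higher in any comparison. Lower calls against TH1 and TH2 numbered 0 and 0 in the first table and 8 and 4 in the second. Among all genes tested, 8.96%, 9.85% and 6.86% were called lower against TH1, TH2 and Treg in the ODC table. The DOHH shares were 8.23%, 8.53% and 4.70%. The list's median log2 fold changes were -0.11, -0.04 and -0.88, then -0.78, -0.51 and -0.91.

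Genes of the polyamine and hypusine pathway, the subject of the study, were read as a list. Odc1, which encodes the rate-limiting ornithine decarboxylase, was 663, 663, 725 and 854 CPM in TH17, 422 to 730 in TH1, 487 to 717 in TH2 and 367 to 479 in Treg. In the DOHH table TH17 held 570, 579 and 551 CPM, TH1 481 to 544, TH2 587 to 661 and Treg 350 to 433. No comparison was called, and the log2 changes lay between -0.15 and 0.83. Sms, Dhps and Dohh gave no call either.

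Srm, spermidine synthase, was 42.2, 42.8, 50.4 and 105 CPM in TH17 and 32.3, 38.2, 37.8 and 86.3 in TH1 of the ODC table, which overlap. In the DOHH table it was 46.1, 54.3 and 43.1 CPM in TH17, below TH1 at 118, 144 and 108, a fall of 1.36 on the log2 scale (adjusted p = 2.22e-07). The tables differed by 1.64 (adjusted p = 0.0386). Eif5a, the protein that carries hypusine, was 1004, 1041, 1014 and 1443 CPM in TH17 and 1491 to 1654 in TH1, and 601, 673 and 649 against 1274 to 1315 in the DOHH table. The second change was called at -1.02, close to the 2-fold threshold, and it was lost without TH17 replicate 1 (-0.97) or replicate 3 (-0.998). The change in the ODC table was -0.50.

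Azin2 was called against both TH1 and TH2 in both tables. Azin2, an antizyme inhibitor, was 4.26 to 4.73 CPM in TH17, 15.5 to 22.4 in TH1 and 85.9 to 97.3 in TH2, and 5.01 to 7.53, 19.6 to 24.3 and 155 to 172 in the DOHH table. Smox, spermine oxidase, was higher than in Treg by 3.71- and 2.78-fold. Over the whole list, 22 and 21 genes tested, 1, 2 and 1 were called higher and 1, 1 and 0 lower against TH1, TH2 and Treg in the ODC table, and 1, 2 and 1 higher and 5, 3 and 0 lower in the DOHH table. Over all genes tested, calls in either direction made up 14.9%, 17.1% and 13.9% in the first table. In the second they were 2057 of 12825 genes against TH1, 17.8% against TH2 and 10.4% against Treg. Of 11 histone acetyltransferase genes, Kat6b alone was called, higher against Treg in both tables (1.25 and 1.19).

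Markers of other cell types were read beside these results. Of all genes tested, 5.70% to 9.26% were called higher in a comparison and 4.70% to 9.85% lower. Lyz2, a myeloid gene, was 10.3 to 26.9 and 15.6 to 19 CPM in TH17, at most 0.585 in TH1 and TH2, and 12.1 to 25.6 and 8.04 to 12.1 in Treg. The 11 myeloid markers summed to 24.3 to 58.1 CPM in TH17 of the ODC table, 7.75 to 20.0 in TH1, 16.3 to 22.2 in TH2 and 23.4 to 55.0 in Treg. The DOHH sums were 42.5 to 46.8, 24.2 to 25.3, 22.0 to 31.5 and 30.8 to 34.3. At 0 in every library were 0, 4, 1 and 1 of the 11 in the first table and 1, 6, 3 and 2 in the second. Of 7 tested in the ODC table, 5, 6 and 1 were called higher against TH1, TH2 and Treg and 0, 1 and 0 lower, and of 6 in its DOHH counterpart 5, 5 and 0 higher and none lower. Lyz2 is 1 of these markers, and their part in the other results was not tested.

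Markers of γδ T cells, which also make IL-17, summed to 30.9 to 90.8 CPM in TH17 and 27.2 to 70.0 in TH1 of the ODC table, 17.6 to 38.7 in TH2 and 20.5 to 45.9 in Treg. The DOHH sums were 56.9 to 89.1, 53.7 to 61.8, 46.2 to 71.6 and 31.8 to 64.9 CPM. Trdc, the δ chain constant gene, was 12.9 to 28.7 and 22.3 to 33.4 CPM in TH17 and was not called against TH1 or TH2. Of 9 markers tested in the ODC table, 1, 6 and 5 were called higher against TH1, TH2 and Treg and 0, 1 and 0 lower. Of 10 in its DOHH counterpart, 3, 3 and 2 were called higher and none lower. The marker 5830411N06Rik was called higher in all 6 comparisons and is 1 of the 99 genes. It stood at 2.53, 1.73, 3.37 and 5.42 CPM in TH17 and at most 1.17 elsewhere in the first table, and at 9.65, 3.78 and 3.94 against at most 3.54 in the second. Its DOHH call against TH1 (1.39) was lost without TH17 replicate 1 (0.78), TH1 replicate 2 (1.24) or TH1 replicate 3 (1.13). Other calls included Tcrg-V4, higher than in TH2 by 1.80 and 1.41, and Blk, higher than in Treg by 2.64 and 2.77 (log2). The DOHH Tcrg-V4 call was lost without TH17 replicate 1 (1.03, adjusted p = 0.0744). The ODC Blk call against Treg was lost without TH17 replicate 1 (2.18, adjusted p = 0.104) or replicate 3. It was also lost without Treg replicate 1, 2 or 3. Against TH2, Blk was called lower in the ODC table (-1.86). The ranges of the sums overlap those of other subsets, and of 13 markers found 1 and 0 were at 0 in all TH17 libraries. Their part in the Il17a and Il17f results was not tested.

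Klrd1, a lectin receptor of NK and CD8+ T cells, was 118 ± 4.59 and 84.6 ± 17.4 CPM in TH17 and was called in all 6 comparisons. The 10 markers of those cells summed to 209 to 278 CPM in TH17 and 211 to 355 in TH1 of the ODC table, 32.6 to 74.8 in TH2 and 74.0 to 111 in Treg, and to 127 to 158, 160 to 203, 43.4 to 59.5 and 57.5 to 84.6 in the DOHH table, and 1 and 2 of them were at 0 in all TH17 libraries. Of 8 and 7 tested, 1, 5 and 3 and then 2, 2 and 3 were called higher, and 3, 1 and 1 and then 3, 2 and 1 lower. Klrd1 is 1 of these 10 markers, and its 118 and 84.6 CPM are part of the TH17 sums. The part of these markers in the Klrd1 and Gzmb results was not tested.

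The 8 B cell markers summed to 88.4 to 105 CPM in TH17 of the ODC table, 38.6 to 109 in TH1, 96.9 to 249.9 in TH2 and 216 to 258 in Treg, and to 254 to 271, 52.8 to 70.5, 114 to 206 and 291 to 301 in the DOHH table. Of 7 tested, 1, 0 and 2 were called higher and 4, 6 and 1 lower against TH1, TH2 and Treg in the first, and 5, 1 and 5 higher and 0, 3 and 0 lower in the second. The 9 basophil and mast cell markers summed to 30.8 to 48.6 CPM in TH17, 14.04 to 19.0 in TH1, 5.06 to 9.85 in TH2 and 26.6 to 46.0 in Treg, then to 16.4 to 25.9, 5.61 to 7.30, 4.03 to 5.16 and 14.2 to 21.8. Of 4 and 3 tested, 3, 2 and 1 and then 1, 1 and 0 were called higher and none lower. Kit held most of the DOHH sum in TH17, at 259, 136 and 169 counts. It held at most 28 counts in TH1, 9 in TH2 and 233 in Treg. Mcpt8, Hdc and Cpa3 held at most 11, 19 and 6 counts in TH17, 8, 20 and 19 in TH1 and 8, 26 and 3 in TH2. None of either list was at 0 in every TH17 library, and their part in the results was not tested.

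Over the promoters of genes called higher in TH17 than in each other subset in both tables, 74 of 99 genes had a window in the table, with 100 windows in all. Of these, 20 held AGGTCA on either strand (20%, exact binomial 95% interval 12.7 to 29.2%). Over all 32851 windows the share was 16.3%, and over the 11897 windows of genes tested in both tables it was 12.4%. Genes higher than in each other subset in either table gave 16.3% of 257 windows (12.04 to 21.4%), an interval that holds both shares. Several windows belong to 1 gene and share sequence, and no test was made. TGANTCA was in 4 windows (4%, against 7.81% and 4.98%), and TTCNNNGAA in 10 (10%, against 8.30% and 6.76%). For the 55 genes called lower, AGGTCA was in 14.3% of 63 windows of 41 genes and TGANTCA in 12.7% (5.65 to 23.5%). A match is a description of letters and not of a bound site.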

How the data were processed

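Poly(A) RNA of each culture was sequenced with a stranded TruSeq mRNA kit on a HiSeq 3000. Per the labels, the authors used STAR with mm10 and then featureCounts, and the deposited values are raw counts for 47937 genes per table. The annotation release and strand setting are not given in the sources used here. From these counts, WT columns of each table were fitted separately over 4 subsets with edgeR 4.0.16 (filterByExpr, TMM scaling, robust quasi-likelihood test, Benjamini-Hochberg adjustment). CPM are counts over the TMM-scaled library size. A call needed a change above 2-fold and an adjusted p below 0.05. The difference between tables was tested as an interaction over both. The fit was tested on simulated counts. DESeq2 1.42.0 served as an alternative, beside other scalings, filters, thresholds and left-out libraries.

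Genes named were, among those called in all 6 comparisons, the 10 in each direction with the largest smallest change, the leading genes of each comparison, and members of gene lists. The first 2 kinds needed a symbol and a mean of at least 5 CPM in the higher group in each table. The members and lists were chosen with earlier results of these data known. Knockout libraries entered 1 alternative only. The replicate numbers pair the samples of the ODC table, where deviations of same-numbered libraries from their group means correlated at 0.249 or more in every pair, and those of the DOHH table against TH1 and TH2 (0.126 or more). Against Treg, 1 of 3 DOHH pairs lay at 0.0687, so the numbers were not taken to pair these. Total counts ran from 6978044 to 9145214 and from 8328721 to 12576933 per WT library. Some genes are not reported here.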

Additional observations from a re-analysis of the deposited data

Results flagged for a closer look

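In 9 of 87 genes described, 1 of the 4 TH17 libraries of the ODC table lay far from the others by Dixon's criterion at the 95% level. Chance gives this in about 1 of 20 groups. Replicate 4 was the one in 8 of these, at 21.7 CPM for Il9, 43.4 for Il6st, 87.6 for Serpinb1a, 9.11 for Crabp2, 38.6 for Ly6g, 105 for Srm, 1443 for Eif5a and 117 for Kat6b. Replicate 2 was the one for Il10, at 34.7 CPM.

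The change of TH17 over another subset differed between the tables by the interaction test (ODC minus DOHH, log2). Against TH1 this difference was positive for Il17a at 4.41, Il21 at 1.26, Il24 at 3.11, Hif1a at 1.59, Il23r at 1.62, Il1r1 at 1.55 and Tgfbr1 at 0.96. A positive value for a gene lower in TH17, such as Il24, means a smaller fall in the ODC table. The same sign held for Gzmb at 2.66, Il12rb2 at 1.09, Il13 at 1.97, Hmgcs1 at 1.39 and Srm at 1.64. The difference was negative for Stat3 at -0.56, Slc26a10 at -1.15, Fam71b at -0.99, Foxp3 at -1.12, Nt5e at -1.74 and Ldlrad4 at -2.04. It was also negative for Gbp2 at -0.78, Socs3 at -1.52, Ahrr at -1.51, Slc2a1 at -1.95, Hk2 at -1.08 and Slc16a3 at -1.49.

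Against TH2 the difference was 3.24 for Il17a, 1.81 for Il21, 3.13 for Il24, 1.29 for Hif1a, 2.12 for Il23r, 1.95 for Il1r1, 2.48 for Gzmb and 1.20 for Cxcr6. It was 1.38 for Hmgcs1 and 0.64 for Smox. Negative values were -0.61 for Stat3, -1.48 for Slc26a10, -1.01 for Fam71b, -1.11 for Gata3, -1.75 for Foxp3, -0.999 for Nt5e, -1.42 for Ldlrad4, -1.19 for Socs3, -1.65 for Slc2a1, -1.22 for Hk2 and -1.42 for Slc16a3.

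Against Treg the difference was 2.77 for Il17f, 2.83 for Il24, 1.48 for Maf, 2.47 for Il1r1, 1.51 for Prr29, 1.94 for Tgfbi and 2.87 for Gja5. It was -2.03 for Slc26a10, -1.23 for Fam71b, -1.57 for Itih5, -1.12 for Foxp3, -0.87 for Nt5e, -1.26 for Gbp2, -1.03 for Slc2a1, -0.57 for Hk2 and -0.65 for Slc16a3. Over all 12185 genes tested in both tables, the difference passed the test in 3318 (27.2%) against TH1, 2093 (17.2%) against TH2 and 481 (3.95%) against Treg. The tables hold different libraries, with controls from separate mouse lines, and were not counted alike, and these cannot be told apart.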

How the results depend on the processing

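Of 22309 values of named genes under an alternative, 21727 kept their call or its absence, 327 lost the call, 255 gained one and no called value changed sign. Some values that were not called did, as for Il9 against TH2 in the ODC table (0.64, and -1.74 without TH17 replicate 4). Counts of calls moved by over 1.5 times with the threshold or a filter on low counts. With a mean count of at least 50, calls against TH1, TH2 and Treg were 961, 1159 and 962 in the ODC table, and 1145, 1274 and 709 in its DOHH counterpart, and 513, 679 and 479 in both. Tested against a 2-fold change (glmTreat), they were 860, 1131 and 899, then 1100, 1243 and 617, and 520, 693 and 420 in both. With an adjusted p below 0.05 and no fold threshold, they were 5700, 6459 and 4666, then 5732, 6312 and 3509, and 2630, 3599 and 2295 in both. Under these 3 settings in turn, genes higher than in each other subset numbered 84, 78 and 641 in the ODC table, 66, 66 and 634 in its DOHH counterpart and 37, 33 and 261 in both. Lower genes numbered 102, 53 and 636, then 61, 31 and 417, and 32, 18 and 180 in both. With WT and KO groups in 1 fit, 101 genes were higher in the DOHH table. Differences between tables above 2-fold numbered 1164, 802 and 256. On all genes, the DOHH distance ratio was 0.771.

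Leaving out each library in turn gave 1848 to 2022, 2165 to 2332 and 1708 to 2045 calls in the ODC table and 2057 to 2176, 2258 to 2399 and 1233 to 1456 in the DOHH table. With the replicate block, calls were 1985, 2258 and 1867 in the ODC table, and 2083, 2309 and 1356 in its DOHH counterpart, and 100 genes were higher in both. It moved no count of calls by over 1.5 times. Of 924 values of named genes, 2 lost a call with it and 11 gained one, none of them a comparison whose change is given by gene in the report. Without number 4 of every subset, chosen after seeing the data, the ODC calls were 1968, 2238 and 2026. Genes near the floor of 3 counts, such as Il22, are limited by depth.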
